A study of Mus musculus with 12 samples.

Results

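Kinesins are motor proteins that move along microtubules, and their genes were followed here through 4 pieces of mouse hippocampus taken by laser capture. The members are all genes with 1 feature symbol on the array that begins with Kif and a digit, or that is Kifc1, Kifc2 or Kifc3. Kifap3 and Kifbp, which encode partners of the motors and no motor, were left out. The rule took 39 of the 30142 genes measured, each read by 1 feature. Of these, 37 are kinesin genes of 13 subfamilies and 2 are pseudogenes (Kif4-ps and Kif22-ps). Kif1c, Kif17 and Kif27 share their features with another gene on this platform and are therefore no members.

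Kinesins bind microtubules through a motor domain and use ATP to step along them, most of them towards the plus end. In neurons, whose axons and dendrites lie far from the nucleus, members of the kinesin-1, kinesin-2 and kinesin-3 subfamilies carry vesicles, mitochondria, receptors and RNA granules. The kinesin-14 proteins walk towards the minus end, the kinesin-13 proteins take microtubules apart at their ends, and a further set builds the spindle and the midbody of dividing cells. Some mRNAs are themselves carried into dendrites, so the RNA of a motor and its protein need not lie in the same place.

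The 4 groups were the dendritic layer (stratum radiatum) of CA2, the cell body layer (stratum pyramidale) of CA2, the dendritic layer of CA1 and the cell body layer of CA1, with 3 arrays each and 12 in all. All groups came from the same kind of animal, male Amigo2-EGFP mice (background C57BL/6J) aged 6 to 8 weeks, 3 mice from separate litters with 4 pieces each. Every group thus carries the EGFP reporter, and the labels do not say whether it guided the capture. Each piece pooled tissue of 8 µm sections from about 20 caps with 5 sections each, and 5 to 7 ng of RNA with an integrity number of 6.9 to 7.5 was amplified. Values are log2 expression values as normalized by the authors, so a difference of 1 is a 2-fold difference, and group values are means ± SD of 3 arrays. Levels of different genes are not compared, since each feature has its own brightness.

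A captured layer holds more than pyramidal neurons. In CA2, all 12 astrocyte markers, 11 of 11 oligodendrocyte markers, 11 of 11 microglia markers, 10 of 10 endothelial markers, 8 of 8 mural cell markers, 7 of 7 markers of oligodendrocyte precursors and, among markers of interneurons, 8 of 11 stood higher in the dendritic than in the cell body layer. The counts in CA1 were the same except for interneurons, with 9 markers higher and 1 lower. The log2 of the summed astrocyte level was 14.10 to 14.21 in the CA2 dendritic layer against 12.05 to 12.07 among CA2 cell bodies, and 14.04 to 14.09 in the CA1 dendritic layer against 11.93 to 11.996 among CA1 cell bodies. Of 5 pyramidal neuron markers, 4 were lower and 1 was higher in the dendritic layer of each region, and their log2 summed level was 13.1 to 13.2 in the CA2 dendritic layer against 13.6 to 13.7 among CA2 cell bodies. In bulk pieces like these, fewer cells of a type and less RNA per cell cannot be told apart. The part of this cell mixture in the differences below was not tested. All 7 CA2 neuron markers were higher in the CA2 than in the CA1 cell body layer, as the labels of the pieces say.

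The arrays numbered 2 and 3 of the CA2 dendritic layer and the array numbered 1 of the CA2 cell body layer stand apart. They carried oocyte transcripts, with a mean over 15 oocyte markers of 7.36, 7.32 and 7.24 against 5.43 to 5.81 on the other 9 arrays. Results on kinesins, adaptors and dynein genes that rest on CA2 are therefore also given without these 3 arrays where that ends a call or moves a count by over 1.5 times. The fit without them has 1 CA2 dendritic and 2 CA2 cell body arrays and takes the spread from all groups. All CA1 arrays have one run number and all CA2 arrays another, so effects of region and of run cannot be told apart where CA2 is set against CA1, whereas each comparison of layers lies within a run. Within groups the kinesin genes varied little, with a median SD of 0.083 in the CA2 dendritic layer, 0.075 in the CA2 cell body layer, 0.076 in the CA1 dendritic layer and 0.067 in the CA1 cell body layer. Over all features the median mean level was 5.76, and 11 of the 39 members lay at or below it.

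The dendritic layer was compared with the cell body layer within each region, with limma over all genes, and a gene was called at a Benjamini-Hochberg adjusted p under 0.05. In both regions the kinesin-1 gene Kif5a, the minus-end motor gene Kifc2 and the kinesin-3 genes Kif13a and Kif13b were higher in the dendritic layer. Kif3a and Kif3b of kinesin-2, Kif21a of kinesin-4, Kif2a of kinesin-13 and Kif1b of kinesin-3 were lower there in both regions. No member was called in opposite directions in the regions. Of the rest, 4 were called in CA2 alone, 8 in CA1 alone and 18 in neither.

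In CA2, 13 of the 39 members (33.3%) were called, 6 of them higher in the dendritic layer and 7 lower, against 34.0% of all genes, 16.2% higher and 17.8% lower. In CA1, 17 members (43.6%) were called, 12 higher and 5 lower, against 46.9% of all genes, 28.3% higher and 18.5% lower. Kinesin genes were thus called about as often as other genes. Their median difference was 0.02 in CA2, where that of all genes was -0.03, and 0.17 in CA1, where that of all genes was 0.12. A called difference of at least 2-fold was seen for Kif5a in CA2 and for Kif5a and Kifc2 in CA1, against 5.87% and 6.14% of all genes in these regions. Every called member kept its sign in all 3 number-matched pairs, and its groups did not overlap. Genes called with 3 arrays a group will mostly show this, so it adds no support to the calls. Its share over all called genes was not counted.

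The CA1 count depends on the scaling, because the median gene itself is 0.12 higher in the CA1 dendritic layer under the authors' normalization. With quantile normalization over the genes the CA1 split was 6 higher and 6 lower, and 37.9% of all genes were called. With each array centred on its median the split was 3 higher and 9 lower, and 39.9% of all genes were called. The median difference of all genes was 0.0006 and -0.03 in these 2 runs, in the same order. Kif5a, Kifc2 and Kif13a were the 3 higher under centring, and Kif2a, Kif3a, Kif3b and Kif21a were lower under both scalings. In CA2 both scalings gave 5 higher and 7 lower, against 33.8% (quantile) and 36.2% (centring) of all genes called. Without the 3 arrays with oocyte transcripts, 7 members were called in CA2, 3 higher (Kif5a, Kif13a, Kif13b) and 4 lower (Kif3a, Kif3b, Kif3c, Kif21a), and 18.9% of all genes.

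**Figure D1:**
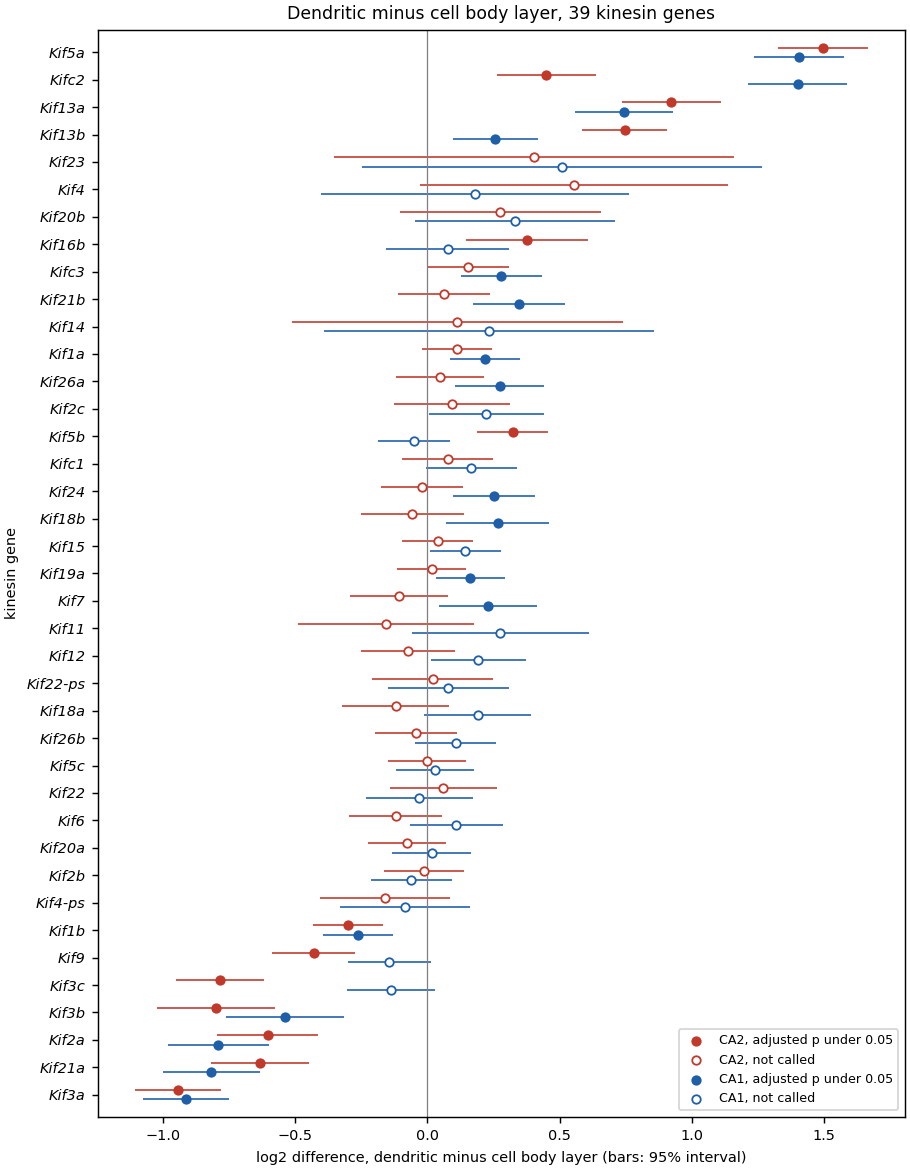
Difference between the dendritic and the cell body layer for each kinesin gene (log2, with its 95% interval) in CA2 and in CA1, with filled points for members called at an adjusted p under 0.05. Kif5a lies far to the right in both regions at 1.50 and 1.41, Kifc2 does so in CA1 at 1.40 and less in CA2 at 0.45, and Kif3a lies farthest to the left at -0.94 and -0.91.

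Kinesin-1 is the motor that carries mitochondria, vesicles and RNA granules, a dimer of heavy chains encoded by Kif5a, Kif5b and Kif5c. Kif5a and Kif5c are expressed mainly in neurons and Kif5b in most cells. Kif5a read 11.26, 11.44 and 11.40 in the CA2 dendritic layer against 9.83, 9.92 and 9.86 in the CA2 cell body layer. In CA1 it read 11.57, 11.56 and 11.58 in the dendritic layer against 10.27, 10.07 and 10.15 in the cell body layer. In each region every dendritic array lay more than 1 log2 unit above every cell body array. The difference was 1.50 (SE 0.08, adjusted p = 2.0e-07, 2.82-fold) in CA2 and 1.41 (SE 0.08, adjusted p = 3.7e-07, 2.65-fold) in CA1.

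Kif5c, the other neuronal heavy chain, gave equal means in the layers of CA2. It read 10.65, 10.86 and 10.80 in the CA2 dendritic layer against 10.74, 10.79 and 10.78 in the CA2 cell body layer, and the groups overlap. Its difference was 0.00 (95% interval -0.15 to 0.15) in CA2 and 0.03 (95% interval -0.12 to 0.18) in CA1, so a layer difference of the size seen for Kif5a lies outside both intervals. Kif5b read 10.08, 10.08 and 10.12 in the CA2 dendritic layer against 9.81, 9.77 and 9.73 in the CA2 cell body layer, without overlap. In CA1 it read 9.82, 9.90 and 9.89 in the dendritic layer against 9.93, 9.95 and 9.88 in the cell body layer, with overlap. Kif5b rose by 0.32 (SE 0.06, adjusted p = 0.0017) in CA2, and its CA1 difference was -0.05 (95% interval -0.18 to 0.08). The CA2 call was lost when the arrays carrying oocyte RNA were left out (0.36, adjusted p = 0.0927), and with median centring Kif5b was called lower in the CA1 dendritic layer (-0.20, adjusted p = 0.0245).

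**Figure D2:**
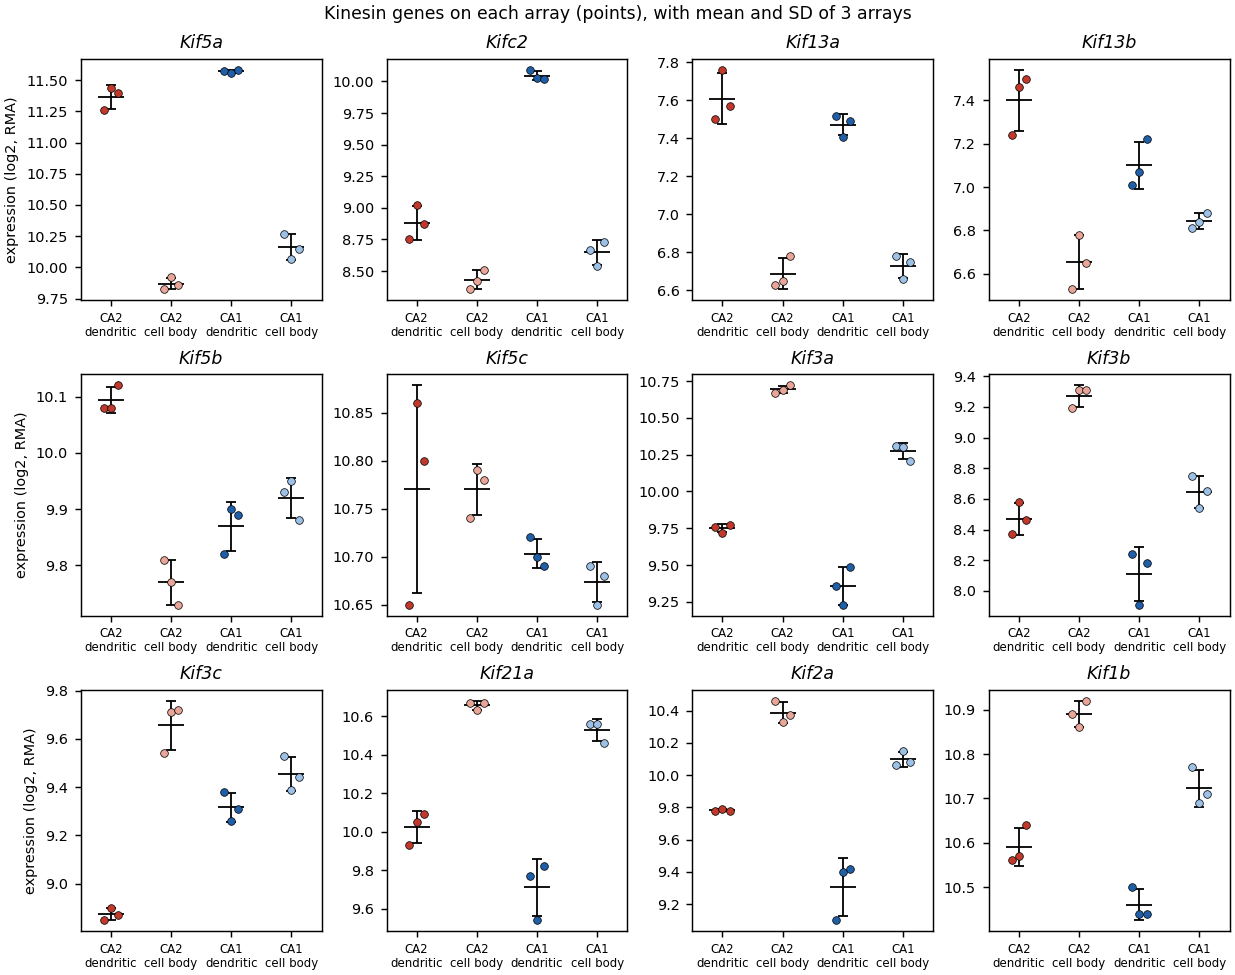
Level of named kinesin genes on each of the 12 arrays (log2 expression), with the CA2 dendritic, CA2 cell body, CA1 dendritic and CA1 cell body arrays from left to right and bars for each group's mean and SD. The dendritic arrays lie above the cell body arrays of their region for Kif5a and Kif13a and below them for Kif3a and Kif21a, without overlap.

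Kifc2 encodes a kinesin-14 motor of neurons that moves towards the minus ends of microtubules. It read 8.75, 9.02 and 8.87 in the CA2 dendritic layer against 8.36, 8.42 and 8.51 in the CA2 cell body layer. In CA1 it read 10.09, 10.03 and 10.02 in the dendritic layer against 8.67, 8.54 and 8.73 in the cell body layer. The CA1 dendritic arrays stand far above all 9 others, while the CA2 dendritic arrays lie just above the cell body arrays of both regions. The difference was 0.45 (SE 0.08, adjusted p = 0.0017) in CA2 and 1.40 (SE 0.08, adjusted p = 7.1e-07, 2.64-fold) in CA1. Without the arrays with oocyte transcripts the CA2 difference was 0.235 (adjusted p = 0.297). Kifc3, a second kinesin-14 motor known from epithelial junctions, was 0.28 higher in the CA1 dendritic layer (adjusted p = 0.0076), a call that ended with median centring and without replicate 1 or 2 of all groups.

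Kinesin-3 motors carry membrane cargo. Kif13a and Kif13b move endosomes and receptors, Kif1a carries precursors of synaptic vesicles, Kif1b carries synaptic vesicle precursors and mitochondria, and Kif16b moves early endosomes. Kif13a read 7.50, 7.76 and 7.57 in the CA2 dendritic layer against 6.63, 6.65 and 6.78 in the CA2 cell body layer, and 7.52, 7.41 and 7.49 in the CA1 dendritic layer against 6.78, 6.66 and 6.75 in the CA1 cell body layer. The layers did not overlap in either region. Kif13a rose by 0.92 (SE 0.08, adjusted p = 1.1e-05) in CA2 and by 0.74 (SE 0.08, adjusted p = 4.8e-05) in CA1.

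Kif13b read 7.24, 7.46 and 7.50 in the CA2 dendritic layer against 6.53, 6.78 and 6.65 in the CA2 cell body layer. In CA1 its dendritic values of 7.01, 7.07 and 7.22 lay closer to the cell body values of 6.81, 6.84 and 6.88. The difference was 0.75 (SE 0.07, adjusted p = 1.7e-05) in CA2 and 0.26 (adjusted p = 0.015) in CA1. The CA1 call was lost with median centring (0.10, adjusted p = 0.328) and when any replicate number was left out. Kif1a read 10.95, 11.03 and 10.99 in the CA2 dendritic layer against 10.87, 10.87 and 10.89 in the CA2 cell body layer, a difference of 0.11 (adjusted p = 0.19). In CA1 it read 11.16, 11.09 and 11.10 in the dendritic layer against 10.93, 10.87 and 10.90 in the cell body layer. That CA1 difference of 0.22 (adjusted p = 0.013) was 0.06 (adjusted p = 0.487) with median centring. Its call was also lost when any replicate number was left out.

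Kif1b went the other way. It read 10.56, 10.57 and 10.64 in the CA2 dendritic layer against 10.89, 10.86 and 10.92 in the CA2 cell body layer, and fell by 0.30 (SE 0.06, adjusted p = 0.0024). In CA1 it read 10.50, 10.44 and 10.44 in the dendritic layer against 10.77, 10.69 and 10.71 in the cell body layer, and fell by 0.26 (adjusted p = 0.0046). The groups of neither region overlap, but quantile normalization (-0.16, adjusted p = 0.0956) and leaving out replicate 2 ended the CA1 call. Leaving out the arrays with oocyte transcripts ended the CA2 call (-0.395, adjusted p = 0.0629). Kif16b was 0.38 higher in the CA2 dendritic layer (adjusted p = 0.017), and differed by 0.08 in CA1 (adjusted p = 0.56). That CA2 call was lost without those arrays (0.395, adjusted p = 0.19), with either other scaling and without replicate 1 or 2.

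Kinesin-2 works as a heterotrimer of the motors encoded by Kif3a and Kif3b and the accessory subunit encoded by Kifap3, and carries cargo in neurites and within cilia. Kif3c encodes another motor that can pair with Kif3a. Kif3a read 9.76, 9.72 and 9.77 in the CA2 dendritic layer against 10.67, 10.69 and 10.72 in the CA2 cell body layer, and 9.36, 9.23 and 9.49 in the CA1 dendritic layer against 10.31, 10.30 and 10.21 in the CA1 cell body layer. The arrays of each group lie close together and the layers are far apart. Kif3a fell by 0.94 (SE 0.07, adjusted p = 3.4e-06) in CA2 and by 0.91 (SE 0.07, adjusted p = 4.6e-06) in CA1.

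Kif3b read 8.37, 8.58 and 8.46 in the CA2 dendritic layer against 9.19, 9.31 and 9.31 in the CA2 cell body layer, and 8.24, 7.91 and 8.18 in the CA1 dendritic layer against 8.75, 8.54 and 8.65 in the CA1 cell body layer. It fell by 0.80 (SE 0.10, adjusted p = 1.1e-04) in CA2 and by 0.54 (SE 0.10, adjusted p = 0.0015) in CA1, without overlap. Kifap3, which encodes the accessory subunit and is no member, read 9.48, 9.45 and 9.57 in the CA2 dendritic layer against 10.83, 10.80 and 10.82 in the CA2 cell body layer. In CA1 Kifap3 read 8.99, 8.92 and 9.21 in the dendritic layer against 10.30, 10.36 and 10.34 in the cell body layer. All 3 subunit genes of the trimer were thus lower in both dendritic layers, Kifap3 by a difference of -1.32 (SE 0.07, adjusted p = 3.1e-07) in CA2 and -1.29 (SE 0.07, adjusted p = 4.2e-07) in CA1. Kif3c read 8.85, 8.90 and 8.87 in the CA2 dendritic layer against 9.54, 9.71 and 9.72 in the CA2 cell body layer, and fell by 0.78 (SE 0.07, adjusted p = 1.5e-05). In CA1 Kif3c read 9.38, 9.26 and 9.31 in the dendritic layer against 9.53, 9.39 and 9.44 in the cell body layer. Its CA1 difference was -0.14 (95% interval -0.30 to 0.03, adjusted p = 0.15). Of the alternatives, only median centring called it (-0.29, adjusted p = 0.0134), and over all of them it ran from -0.29 to 0.04.

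Because Kif3a and Kif3b encode partners and fell in both regions, the 250 bases before their annotated starts are shown, from RefSeq on build GRCm38.p6. Kif3a lies at chr11:53567119-53567368 on the plus strand and Kif3b at chr2:153291166-153291415 on the plus strand. Capitals mark the CCAAT box (CCAAT, or ATTGG on the other strand), a promoter element bound by the factor NF-Y. Each window holds 1 match, as do 33.9% of all 32851 windows of the same length with 1 or more.
Kif3a: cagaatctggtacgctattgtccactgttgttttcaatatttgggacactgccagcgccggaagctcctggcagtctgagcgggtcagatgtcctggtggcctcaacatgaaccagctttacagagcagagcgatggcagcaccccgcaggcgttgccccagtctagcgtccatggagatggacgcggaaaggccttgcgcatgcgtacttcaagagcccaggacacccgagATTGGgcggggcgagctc
Kif3b: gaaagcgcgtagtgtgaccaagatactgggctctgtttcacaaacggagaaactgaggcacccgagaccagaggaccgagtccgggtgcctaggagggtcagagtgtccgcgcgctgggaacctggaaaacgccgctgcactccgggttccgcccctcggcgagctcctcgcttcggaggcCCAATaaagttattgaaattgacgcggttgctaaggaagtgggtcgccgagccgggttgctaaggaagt
Of the 29 members with a promoter in the table, 14 had a CCAAT box. Of the other members that fell in both regions, Kif1b had a CCAAT box and Kif2a and Kif21a had none. A match describes the letters and no binding.

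Kif21a and Kif21b are kinesin-4 motors that slow microtubule growth, and Kif2a is a kinesin-13 protein that takes microtubules apart. Kif21a read 9.93, 10.05 and 10.09 in the CA2 dendritic layer against 10.67, 10.63 and 10.67 in the CA2 cell body layer, and 9.77, 9.54 and 9.82 in the CA1 dendritic layer against 10.56, 10.56 and 10.46 in the CA1 cell body layer. The layers did not overlap, and Kif21a fell by 0.63 (SE 0.08, adjusted p = 1.5e-04) in CA2 and by 0.82 (SE 0.08, adjusted p = 2.3e-05) in CA1. Kif21b overlapped in CA2, where it read 7.55, 7.80 and 7.62 in the dendritic layer against 7.51, 7.68 and 7.59 in the cell body layer (difference 0.06, adjusted p = 0.61). In CA1 Kif21b was 0.35 higher in the dendritic layer (adjusted p = 0.0046), with 8.08, 8.04 and 8.15 against 7.74, 7.68 and 7.81 in the cell body layer, and 0.19 higher (adjusted p = 0.0933) with median centring.

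Kif2a read 9.78, 9.79 and 9.78 in the CA2 dendritic layer against 10.46, 10.33 and 10.37 in the CA2 cell body layer, and 9.10, 9.40 and 9.42 in the CA1 dendritic layer against 10.06, 10.15 and 10.08 in the CA1 cell body layer. It was lower in both dendritic layers without overlap, by a difference of -0.60 (SE 0.09, adjusted p = 2.7e-04) in CA2 and -0.79 (SE 0.09, adjusted p = 3.9e-05) in CA1. Leaving out the arrays with oocyte transcripts ended the CA2 call (-0.39, adjusted p = 0.127).

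Of the kinesins tied to cilia and centrioles, Kif9, a motor of motile cilia, read 5.97, 5.87 and 5.91 in the CA2 dendritic layer against 6.38, 6.41 and 6.25 in the CA2 cell body layer. Kif9 fell by 0.43 (SE 0.07, adjusted p = 7.2e-04) in CA2, and its CA1 difference was -0.14 (adjusted p = 0.12). The CA2 call was lost when those arrays were left out (-0.28, adjusted p = 0.219), and with either other scaling Kif9 was called lower in CA1 too. Kif7, which acts at the ciliary tip in Hedgehog signalling, was 0.23 higher in the CA1 dendritic layer (adjusted p = 0.043), and Kif24, a centriole protein that restrains cilium assembly, was 0.25 higher (adjusted p = 0.013). Both CA1 calls, and those of Kif18b (0.27) and Kif19a (0.16), were lost with quantile normalization and with median centring, while that of Kif26a (0.27) held with quantile normalization and was lost with centring. Kif19a and Kif26a are named after their values were seen. Of 11 markers of ependymal and other multiciliated cells, 3 were lower and 0 higher in the CA2 dendritic layer, and 2 were lower and 2 higher in the CA1 dendritic layer. Their part in the values of the ciliary kinesins was not tested.

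The 12 kinesins of cell division act in spindle assembly, chromosome movement and cytokinesis, and mature pyramidal neurons do not divide. Most of them are dim here. Kif2c, Kif4, Kif11, Kif14, Kif15, Kif18a, Kif20b and Kif23 are among the 11 members at or below the median feature. For these, a missing call does not show that the layers are equal. In the limma test of the CA2 layers, 0 of the 12 were called, 0 had an unadjusted p under 0.05, and their differences ran from -0.16 to 0.55, where 34.0% of all genes were called. In CA1, 1 was called higher in the dendritic layer (Kif18b), 3 had an unadjusted p under 0.05, and the differences ran from -0.03 to 0.51, where 46.9% of all genes were called. All groups share 1 spread in this fit, so the 3 arrays with oocyte transcripts enter the CA1 test as well. For Kif23 the SE in CA1 was 0.34, while its SD was 0.16 over the CA1 dendritic and 0.07 over the CA1 cell body arrays. More division kinesins were called higher in CA1 when those 3 arrays were left out. Kif11, the motor that pushes spindle poles apart, read 5.27, 5.49 and 5.77 in the CA2 dendritic layer against 5.73, 5.81 and 5.46 in the CA2 cell body layer, with overlap. In CA1 Kif11 read 5.68, 5.32 and 5.31 in the dendritic layer against 5.09, 5.27 and 5.12 in the cell body layer, and its difference there was 0.28 (adjusted p = 0.15). Kif18a, which limits the swinging of chromosomes on the spindle, differed by -0.12 in CA2 (adjusted p = 0.38) and 0.19 in CA1 (adjusted p = 0.11).

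In CA2 some division kinesins followed single arrays more than layers. Kif23, a subunit of centralspindlin that builds the midbody, read 5.51, 6.55 and 6.10 in the CA2 dendritic layer against 6.57, 5.24 and 5.14 in the CA2 cell body layer. In CA1 Kif23 read 5.64, 5.33 and 5.41 in the dendritic layer against 5.03, 4.91 and 4.91 in the cell body layer. The 3 highest Kif23 values are those of the 3 arrays with oocyte transcripts. Kif4, a motor of chromosome arms and the midzone, read 5.01, 5.60 and 5.72 in the CA2 dendritic layer against 5.56, 4.59 and 4.52 in the CA2 cell body layer. Kif14, a midbody motor, read 4.73, 5.35 and 5.61 in the CA2 dendritic layer against 5.82, 4.78 and 4.75 in the CA2 cell body layer. For both genes the same 3 arrays are again the highest of all 12. The CA1 values of Kif4 ran from 4.72 to 4.88 in the dendritic layer and from 4.47 to 4.66 in the cell body layer, and those of Kif14 from 4.83 to 5.08 in the dendritic layer and from 4.65 to 4.73 in the cell body layer. Kif20b, which acts in the last steps of cytokinesis, read 4.17, 4.35 and 4.72 in the CA2 dendritic layer against 4.53, 3.99 and 3.89 in the CA2 cell body layer, again with its 3 highest values on those arrays. Kif23, Kif4, Kif14 and Kif20b are named after their values were seen. For no other division kinesin were these arrays the 3 highest. Kif2c, Kif20a and Kif22 were highest on an array of these 3. Kif11, Kif15, Kif18a, Kif18b and Kifc1 were highest on other arrays. The share of all genes that are highest on the same 3 arrays was not counted.

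Markers of dividing cells stood higher on these arrays too. The mean of 12 such markers was 5.79, 6.07 and 6.17 on the CA2 dendritic arrays against 6.07, 5.71 and 5.63 on the CA2 cell body arrays, and 5.94, 5.85 and 5.72 on the CA1 dendritic arrays against 5.54, 5.53 and 5.52 on the CA1 cell body arrays. Of the 12 markers, 2 were called higher in the CA2 dendritic layer and 5 in the CA1 dendritic layer, against 16.2% and 28.3% of all genes. Between the CA2 layers the median difference of the markers was 0.225, and 0.04 without the 3 arrays. The part of dividing cells in the values of the division kinesins was not tested. Between the CA1 layers the median difference of the 12 division kinesins was 0.21 with and without the 3 arrays, where that of all genes was 0.12. Calls depend on the spread as well. Without the 3 arrays more of the division kinesins and of the dividing cell markers were called higher in CA1.

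The promoters of Kif23 and Kif4 are shown as those of 2 of the 4 genes highest on the same arrays, because the CCAAT box is known from genes of the cell cycle. Of the other two, Kif14 has 1 CCAAT box and Kif20b has none. Kif23 lies at chr9:61946800-61947049 on the minus strand with 1 match, and Kif4 at chrX:100625815-100626064 on the plus strand with 2 matches, in capitals.
Kif23: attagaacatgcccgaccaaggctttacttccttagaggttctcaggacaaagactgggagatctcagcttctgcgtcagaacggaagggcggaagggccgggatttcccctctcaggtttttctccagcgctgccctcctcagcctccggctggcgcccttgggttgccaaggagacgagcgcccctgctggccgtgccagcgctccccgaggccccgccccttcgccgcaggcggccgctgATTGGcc
Kif4: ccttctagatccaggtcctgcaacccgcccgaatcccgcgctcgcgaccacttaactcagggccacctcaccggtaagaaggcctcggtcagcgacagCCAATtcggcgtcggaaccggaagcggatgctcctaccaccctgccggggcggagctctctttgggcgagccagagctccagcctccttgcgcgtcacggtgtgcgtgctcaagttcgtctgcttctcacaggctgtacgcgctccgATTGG
Another cell cycle element, the CHR (TTTGAA, or TTCAAA on the other strand), was in neither window. It was in those of 7 of the 29 members (Kif1a, Kif2c, Kif11, Kif14, Kif15, Kif22 and Kif26b) and in 16.0% of all windows.

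**Figure D3:**
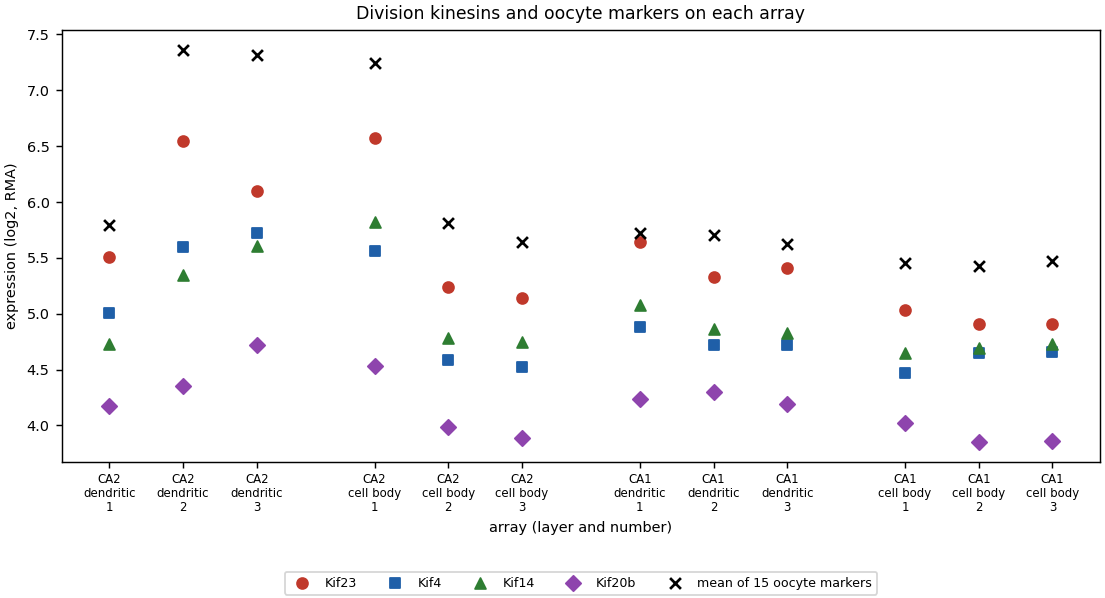
Level of 4 division kinesins, Kif23, Kif4, Kif14 and Kif20b, and the mean of 15 oocyte markers (crosses) on each array (log2 expression), with CA2 dendritic, CA2 cell body, CA1 dendritic and CA1 cell body arrays from left to right. All 4 genes are highest on the arrays whose crosses stand at 7.36, 7.32 and 7.24.

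The next comparison asked where the layer difference itself differs between the regions, taken as that of CA2 minus that of CA1. A shift between the runs that is equal in both layers cancels in it. Of the members, 4 (10.3%) were called, 2 higher and 2 lower, against 11.6% of all genes, 4.81% higher and 6.81% lower, so the kinesins again lay near the background. Cell type markers also differed in this comparison, with 7 of 7 CA2 neuron, 6 of 11 microglia (median -0.52) and 2 of 5 pyramidal neuron markers (median -0.59) lower and 3 of 6 CA1 neuron markers higher. With the arrays carrying oocyte RNA left out, 7, 1, 1 and 1 markers of these lists, in the same order, were called, and their part in the kinesin values was not tested. Kifc2 had the largest, -0.95 (SE 0.12, adjusted p = 0.0011), since it differed by 0.45 between the layers in CA2 and by 1.40 in CA1. Kif3c followed with -0.65 (SE 0.11, adjusted p = 0.0046), from layer differences of -0.78 in CA2 and -0.14 in CA1. Kif13b differed by 0.49 (SE 0.10, adjusted p = 0.015) and Kif5b by 0.37 (SE 0.09, adjusted p = 0.022), both more towards the dendritic layer in CA2.

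The Kifc2 value held its call in every alternative run. The call of Kif3c was lost without replicate 2 or replicate 3 of all groups (highest adjusted p 0.0757). Without the arrays with oocyte transcripts, those of Kif13b (0.36, adjusted p = 0.256) and Kif5b (0.41, adjusted p = 0.164) were lost, and 2.32% of all genes were called. Both of these calls were also lost when any replicate number was left out. For Kif5a, the difference between the regions was 0.09 (95% interval -0.15 to 0.33), and for Kif3a it was -0.03 (95% interval -0.26 to 0.20).

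The regions were then compared within each layer, where the arrays of CA2 and CA1 also differ by run. In the cell body layer 8 members (20.5%) were called, 7 higher and 1 lower in CA2, against 21.1% of all genes, 10.6% higher and 10.5% lower. Kif3a, with 10.67, 10.69 and 10.72 in CA2 against 10.31, 10.30 and 10.21 in CA1, was 0.42 higher (SE 0.07, adjusted p = 0.0024). Kif3b was 0.62 higher (SE 0.10, adjusted p = 0.0015), with 9.19, 9.31 and 9.31 in CA2 against 8.75, 8.54 and 8.65 in CA1. Their partner Kifap3 was higher by 0.48 (SE 0.07, adjusted p = 9.3e-04), so the 3 subunit genes of kinesin-2 were higher in the CA2 cell body layer. Kif3a and Kif3b were the only members whose call in this layer held in every alternative run.

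Kif9 was 0.34 higher in the CA2 than in the CA1 cell body layer (adjusted p = 0.0071) and Kif6, the other kinesin-9 gene, 0.31 higher (adjusted p = 0.019). Kif6 read 6.39, 6.22 and 6.32 in CA2 against 5.90, 6.07 and 6.03 in CA1, without overlap. Of the 11 markers of multiciliated cells, 1 was higher in the CA2 cell body layer, and their log2 summed level was 9.70 to 9.77 there against 9.54 to 9.57 in the CA1 cell body layer. Of the other cell types, 10 of 11 oligodendrocyte markers (median 0.63) and 5 of 10 endothelial markers were higher in the CA2 cell body layer. The log2 summed level of the oligodendrocyte markers was 11.18 to 11.28 there against 10.59 to 10.78 in the CA1 cell body layer, and 6 of the 11 were called when the arrays carrying oocyte RNA were left out. The part of such cells in the kinesin differences was not tested. Kif11 (0.51, adjusted p = 0.037), Kif18a (0.31, adjusted p = 0.036) and Kif2a (0.29, adjusted p = 0.037) were also higher, and Kif5a was lower by a difference of -0.29 (adjusted p = 0.020). Of these 6 genes (Kif9, Kif6, Kif11, Kif18a, Kif2a and Kif5a), Kif11 kept its call without the arrays with oocyte transcripts and the rest lost theirs. In that fit Kif3c was called higher as well, which gave 4 members among 15.7% of all genes. Kif11 lost its call in 8 of 24 alternatives, among them the one testing every feature and those leaving out any of the CA1 cell body arrays, or array 1 or 2 of the CA2 cell body layer.

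In the dendritic layer 11 members (28.2%) were called, 6 higher and 5 lower in CA2, against 30.2% of all genes, 11.6% higher and 18.6% lower. The split was 4 higher and 4 lower with quantile normalization, and 7 higher and 4 lower with median centring. Of all genes, 22% and 23.9% were called with these scalings, in the same order. Kifc2, with 8.75, 9.02 and 8.87 in CA2 against 10.09, 10.03 and 10.02 in CA1, was the only member called with a difference of at least 2-fold, against 0.650% of all genes. Its difference was -1.17 (SE 0.08, adjusted p = 4.6e-05), 2.24-fold lower in CA2. Its cell body difference between the regions was -0.22 (adjusted p = 0.10), smaller than the dendritic one by the called 0.95 given above.

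Kif3c was lower in the CA2 than in the CA1 dendritic layer by a difference of -0.44 (SE 0.07, adjusted p = 0.0023), and Kif21b by -0.43 (adjusted p = 0.0033). Kif2a was higher by 0.48 (adjusted p = 0.0033), Kif3a by 0.39 (adjusted p = 0.0039) and Kif3b by 0.36 (adjusted p = 0.024). Kif13b (0.30), Kif21a (0.31) and Kif5b (0.22) were also called higher, and Kifc3 (-0.28) and Kif26b (-0.25) lower. Kif26b belongs to a group of kinesins that act in cell signalling and adhesion. Without the arrays with oocyte transcripts 4 members remained called (Kif2a, Kif3c, Kif21b and Kifc2) and 6.36% of all genes. Kif21b lost its call without replicate 1 of all groups, and Kif2a, Kif3c and Kifc2 kept theirs in every alternative run. Cell type markers differed between the dendritic layers as well. In CA2, 5 of 5 pyramidal neuron markers (median -0.54) and 9 of 11 microglia markers were lower, while 8 of 11 oligodendrocyte, 7 of 10 endothelial and 4 of 8 mural cell markers were higher. When the arrays carrying oocyte RNA were left out, 3 of 5, 2 of 11, 4 of 11, 2 of 10 and 2 of 8 markers of these lists, in the same order, were called. The log2 summed level of the pyramidal neuron markers was 13.15 to 13.23 in the CA2 against 13.50 to 13.53 in the CA1 dendritic layer. The log2 summed level of the oligodendrocyte markers was 12.58 to 12.77 in the CA2 against 11.97 to 12.30 in the CA1 dendritic layer, and that of the microglia markers was 12.79 to 12.87 in the CA2 against 13.03 to 13.17 in the CA1 dendritic layer. Of 11 interneuron markers, 5 were higher and 2 lower in the CA2 dendritic layer (median 0.24). There, 3 of 6 CA1 neuron markers (median -0.84) were lower and 3 of 7 CA2 neuron markers (median 0.30) higher. Without the arrays with oocyte transcripts these medians were 0.175, -0.80 and 0.29, in the same order. The part of all these cell types in these kinesin differences was not tested.

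In all, 14 members (35.9%) were called in none of the 5 comparisons of layers and regions, against 36.3% of all genes, with differences between layers or between regions from -0.21 to 0.70. They are Kif5c, the 2 pseudogenes Kif4-ps and Kif22-ps, 9 division kinesins (Kif2c, Kif4, Kif14, Kif15, Kif20a, Kif20b, Kif22, Kif23 and Kifc1), Kif2b and Kif12. Over these members and comparisons, 6 differences had an unadjusted p under 0.05. Some of them were called in alternative runs. Under quantile normalization and under median centring, Kif2b was called lower in the CA1 dendritic layer. Without the replicate block, Kif12 and Kif15 were called higher there. Leaving out the 3 arrays with oocyte transcripts also brought calls of division kinesins listed here in that layer. Runs that leave out a single array or a replicate number are not covered by this account.

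**Figure D4:**
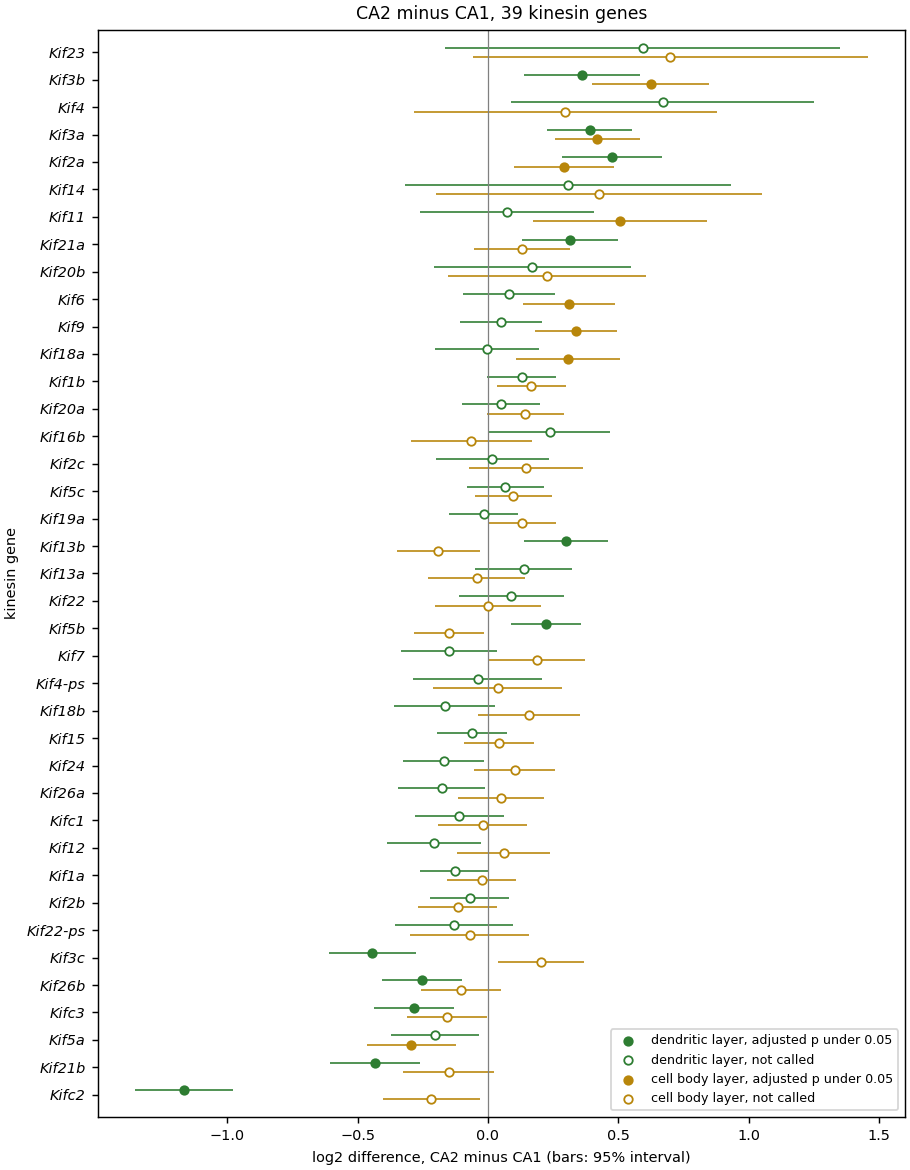
Difference between CA2 and CA1 for each kinesin gene (log2, with its 95% interval) in the dendritic and in the cell body layer, with filled points for members called at an adjusted p under 0.05. Kifc2 lies apart at -1.17 in the dendritic layer, and Kif3b is farthest to the right among the called members of the cell body layer at 0.62.

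The light chains and adaptors that link kinesins to cargo are shown beside the motors. Of 24 measured, 5 were higher and 11 lower in the CA2 dendritic layer, and 8 were higher and 12 lower in that of CA1, against 16.2% of all genes higher and 17.8% lower in CA2 and 28.3% higher and 18.5% lower in CA1. The median difference was -0.02 in CA2 and -0.13 in CA1, where those of all genes were -0.03 and 0.12. Without the arrays with oocyte transcripts their median difference in CA2 was -0.055, where that of all genes was -0.0175. Apba1 (Mint1), an adaptor that ties Kif17 to receptor vesicles, was 1.16 higher in CA2 (adjusted p = 1.5e-06) and 1.66 higher in CA1 (adjusted p = 1.5e-07). Its partner Lin7b in that complex was lower, by -1.17 in CA2 (adjusted p = 3.7e-07) and -0.98 in CA1 (adjusted p = 1.5e-06). Mapk8ip1 (JIP1), a kinesin-1 adaptor, was 0.85 higher in CA2 (adjusted p = 4.3e-06) and 1.19 higher in CA1 (adjusted p = 5.0e-07). Trak1, which couples kinesin-1 to mitochondria, was lower in the CA2 than in the CA1 dendritic layer, by a difference of -0.71 (adjusted p = 5.1e-04).

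Cytoplasmic dynein, the main minus-end motor of neurons, and its cofactors were called mostly in one direction. Of 25 genes measured, 2 were higher and 16 lower in the dendritic layer, in CA2 and likewise in CA1, where 17.8% and 18.5% of all genes were lower, with median differences of -0.35 and -0.34, where all genes gave -0.03 and 0.12. Without the arrays with oocyte transcripts, 2 were higher and 9 lower in CA2, where 8.81% of all genes were lower. Dync1i1, an intermediate chain, was lower by -1.35 in CA2 (adjusted p = 6.7e-07) and -1.07 in CA1 (adjusted p = 3.5e-06). Hook1, which links dynein to endosomes, differed by -0.99 in CA2 (adjusted p = 7.1e-06) and -2.12 in CA1 (adjusted p = 5.4e-08). Nde1, a dynein regulator, was higher by 1.86 in CA2 (adjusted p = 2.7e-07) and 1.51 in CA1 (adjusted p = 1.3e-06).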

How the data were processed

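The labels' protocols give laser-captured pieces, amplified RNA and Affymetrix whole-transcriptome arrays. Per the submitters' processing notes the authors made log2 expression values with RMA, which corrects background, normalizes quantiles and summarizes probes. The software version is not given in the sources used here. RMA can shift dim features and compress the range, which is why other scalings were tried. Of 72688 features, 30604 have 1 symbol, 2146 have several and 39938 are unnamed here. Through Entrez identifiers, 22818 were matched to RefSeq, which changed 827 symbols, none of a member. The brightest feature was kept per symbol, which left 30142 genes.

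All 12 arrays entered 1 limma 3.58.1 fit (lmFit and eBayes, R 4.3.3) with a mean for each of the 4 groups and the replicate number as a block. P-values are two-sided and adjusted over the 30142 genes. The script was tested on simulated data. Array medians ran from 5.68 to 5.88, and precision is limited by the number of arrays. P-values set each difference against the spread between these samples, taken from all 12 arrays with the 3 that carried oocyte transcripts included.

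The members, lists and tests were chosen with earlier results of these data known. Transport kinesins, Kif2a, the 10 members with the smallest p in each comparison and any at least 2-fold apart were named, and others where stated. Up to 4 genes of each other list were taken by smallest p. The labels tie 4 pieces to each mouse, but none says that the number is the mouse. As a check of the pairing, deviations of 18 same-numbered array pairs correlated at -0.346 to 0.132, and those of 36 other pairs at -0.134 to 0.251. Alternatives were no block, quantile normalization, median centring, fits on fewer groups, all features or brighter genes, the mean of features, a trend, array weights, leaving out arrays, and, chosen after seeing the data, leaving out the 3 arrays with oocyte transcripts. Sequences are from RefSeq promoters. Proteins were not used here.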

Additional observations from a re-analysis of the deposited data

Results flagged for a closer look

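For 4 kinesin genes the difference between the dendritic and the cell body layer itself differed between CA2 and CA1 in the test of that difference (limma, adjusted over all genes). It was -0.95 for Kifc2 (0.45 in CA2 and 1.40 in CA1), -0.65 for Kif3c (-0.78 in CA2 and -0.14 in CA1), 0.49 for Kif13b (0.75 in CA2 and 0.26 in CA1) and 0.37 for Kif5b (0.32 in CA2 and -0.05 in CA1).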

How the results depend on the processing

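The counts of called kinesins in the order CA2 layers, CA1 layers, difference between the regions, cell body layers and dendritic layers were 13, 17, 4, 8 and 11. Without the replicate block they were 13, 19, 4, 10 and 12, so the pairing moved no count by over 1.5 times. Of all genes, 34.0%, 46.9%, 11.6%, 21.1% and 30.2% were called with the block, in the same order. Without it the shares were 35.2%, 49%, 14.6%, 22.8% and 33.6%. Counts that moved further were 4 for the dendritic layers with a fit on their 2 groups alone, where 10.3% of all genes were called. For the cell body layers the counts were 5 with every feature tested and 14 with array weights, where 16.8% and 30.9% of all genes were called. Without the 3 arrays with oocyte transcripts, which leaves 1 CA2 dendritic and 2 CA2 cell body arrays, they were 7 for the CA2 layers, 2 for the difference, 4 for the cell body and 4 for the dendritic layers. Leaving out an array or a replicate number gave 12 to 16, 10 to 18, 1 to 5, 2 to 8 and 4 to 12. Of all genes, 26.5% to 35.2%, 32.2% to 48.8%, 2.31% to 16.2%, 11.4% to 22.4% and 12.2% to 32.2% were called in these runs. No called value of a named member changed sign, while some differences that were not called did, such as that of Kif5b between the CA1 layers (-0.05, range -0.20 to 0.14). Calls held in all alternatives for 7 of 13 named members called in CA2, 7 of 15 in CA1, 1 of 4 in the difference, 2 of 8 in the cell body layers and 3 of 11 in the dendritic layers. For the 11 members at or below the median feature, signal over background limits what a difference can show.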

Other observations

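Features that kinesin genes share with another gene read as follows. The feature of Kif1c and Mir6925 read 8.12, 8.42 and 8.26 in the CA2 dendritic layer against 7.39, 7.58 and 7.50 in the CA2 cell body layer, and 8.12, 8.04 and 8.12 in the CA1 dendritic layer against 7.58, 7.60 and 7.51 in the CA1 cell body layer, without overlap of layers. The feature of Kif17 and Sh2d5 read 7.21, 7.38 and 7.26 in the CA2 dendritic layer against 7.49, 7.53 and 7.55 in the CA2 cell body layer, and overlapped in CA1. Kif27 has 2 such features. The one shared with Mir6369 read 5.06, 5.33 and 5.11 in the CA2 dendritic layer against 5.48, 5.48 and 5.57 in the CA2 cell body layer, and 5.53, 5.48 and 5.63 in the CA1 dendritic layer against 6.28, 6.05 and 6.22 in the CA1 cell body layer, without overlap of layers. The one shared with Gm26555 read 5.65, 5.74 and 5.69 in the CA2 dendritic layer against 5.80, 5.85 and 5.73 in the CA2 cell body layer, and 6.18, 6.09 and 5.79 in the CA1 dendritic layer against 6.14, 5.93 and 6.03 in the CA1 cell body layer, with overlap. Which of the genes the signal comes from cannot be told apart.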
